A study of Mus musculus with 4 samples.

Results

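The 10 genes described here, of 32285 genes counted, belong to imprinted loci, where transcripts are read mainly from a single parental allele, although the main product of Gnas is read from both in most tissues: Dlk1, Meg3, Rian and Mirg on chromosome 12, Peg3 on chromosome 7, Gnas and its antisense transcript Gnasas1 on chromosome 2, and Ndn, Magel2 and Snrpn in another part of chromosome 7. They were chosen by name, as members of 4 well-known imprinted loci, and all 10 were followed through every annotated cell type of the mouse posterior hindbrain and through the clusters of its neurons. Each was described by its level in CPM (the unique molecular identifiers, or UMIs, of a gene scaled to 1000000 UMIs of the same nuclei, where a UMI stands for 1 captured RNA molecule) and by the share of nuclei with at least 1 UMI.

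An imprinted gene is read mainly from the copy of the mother or of the father, for some genes only in certain tissues. Many such genes lie in groups that share an imprinting control region, where DNA methylation is set in the egg or sperm. In the locus on chromosome 12 the paternal copy gives the protein Dlk1 while the maternal copy gives long non-coding RNAs, and in the Gnas locus the maternal, paternal and both copies are read from separate first exons. Many imprinted genes are known for their roles in growth, feeding and metabolism, and loss of paternal NDN, MAGEL2 and SNRPN expression accompanies Prader-Willi syndrome, in which overeating is a leading feature.

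The data were single-nucleus RNA-seq libraries of a piece of hindbrain that contains the area postrema and nucleus tractus solitarius. Control mice gave 2 libraries and are wild type in the labels, while the paper describes its controls as carrying hM3DGqfl/- and hM4DGifl/- without Cre or Dre. The other 2 libraries were from AgRP-Gq;POMC-Gi mice, which carry AgRP-IRES-Cre+/- together with hM3DGqfl/- and, on the other arm, POMC-Dre+/- together with hM4DGifl/-. In the latter mice, Cre made under the AgRP promoter switches on the activating receptor hM3DGq, and Dre made under the POMC promoter switches on the inhibiting receptor hM4DGi. AgRP and POMC neurons are found chiefly in the hypothalamus, outside the tissue measured here. Whether hindbrain nuclei held either receptor was not tested. Mice of both groups received clozapine N-oxide (CNO), the ligand of both receptors, at 3 mg per kg 1 h before the tissue was taken, were 12 to 20 weeks old and included males and females. The methods give 2 mice per group and the pooling of tissue within a group, and which mouse went into which library is not given in the sources used here. With n = 2 libraries per group, p-values measure the spread between libraries, which may be technical.

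After the quality filter of the authors 39461 nuclei were kept, between 9723 and 10051 per library, with 48904976 to 53089402 UMIs per library. Neurons made up 12539 nuclei in 134 clusters, 25.4% and 27.2% of the control libraries and 38.0% and 36.5% of those from AgRP-Gq;POMC-Gi mice, and the neuronal median of 8704 UMIs per nucleus was above the 2460 of oligodendrocytes and the 1460 of endothelial cells. Of 42 marker genes of 13 cell type lists, 39 were highest in the type they mark, all 4 neuronal markers among them. AgRP-Gq;POMC-Gi replicate 2 stood apart in Xist, the transcript of the inactive X chromosome of females, at 16.2 CPM in neurons against 319 to 541 CPM in the other libraries, and calls between groups that changed without a single library are given with that value. Of the barcode sequences of kept nuclei, 168 occurred in 2 or more libraries.

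The gene models place the members as follows, on GRCm38 with the GENCODE annotation. Dlk1 (chr12:109452823-109463336, plus strand) encodes a transmembrane protein related to the ligands of Notch. Downstream on the same strand lie 3 non-coding transcripts, Meg3 (chr12:109541001-109571726), Rian (chr12:109603940-109661716), host of 13 annotated small nucleolar RNAs, and Mirg (chr12:109729764-109749460), host of 15 annotated microRNA genes. Peg3 (chr7:6703892-6730431, minus strand) encodes a zinc finger protein. Gnas (chr2:174284320-174346744, plus strand) encodes the stimulatory G protein subunit that couples receptors to cyclic AMP, and Gnasas1 (chr2:174281237-174295436, minus strand), called Nespas in the annotation, runs across its upstream first exons. Ndn (chr7:62346569-62350262, plus strand) and Magel2 (chr7:62377010-62381640, plus strand) are single-exon genes of the MAGE family, and Snrpn (chr7:59982495-60140219, minus strand) encodes a protein of the splicing machinery. Gm26906 overlaps Meg3, Gnasas1 and Gm20721 overlap Gnas, and Gm32061 overlaps Ndn and Magel2, each on the opposite strand, while Gm26945 overlaps Rian and Snurf and Gm38393 overlap Snrpn on the same strand. How the counting used strand is not given in the sources used here, so reads of these pairs may not be fully told apart. Neither the parental allele nor the first exon used by Gnas can be read from these counts.

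The 3 non-coding members matter as hosts, so some of what they carry is shown. Of 1679 mature mouse microRNAs in the RefSeq table, 35 lie on the same strand within Meg3 (3), Rian (6) and Mirg (26), 11 of them within an exon and 24 within an intron. The microRNAs themselves were not measured. Shown 5′ to 3′ with the seed, bases 2 to 8, in capitals are 1 from Meg3 (mmu-miR-770-5p), 2 from Rian (mmu-miR-341-3p and mmu-miR-370-3p) and 4 from Mirg, of which mmu-miR-453 and mmu-miR-496a-5p are the only hosted pair with the same seed.
mmu-miR-770-5p: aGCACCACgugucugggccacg
mmu-miR-341-3p: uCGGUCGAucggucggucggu
mmu-miR-370-3p: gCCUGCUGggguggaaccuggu
mmu-miR-134-5p: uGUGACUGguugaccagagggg
mmu-miR-410-3p: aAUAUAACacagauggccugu
mmu-miR-453: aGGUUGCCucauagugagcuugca
mmu-miR-496a-5p: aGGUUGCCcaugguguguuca

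Promoters are shown for 4 members because CpG methylation carries the imprint. They span 250 bases before to 50 after a RefSeq start site (GRCm38.p6, strand of the gene, 5′ to 3′), with every CpG in capitals, and are the windows of Dlk1, of Meg3, of Rian and of 1 of 4 annotated starts of Gnas. The median of 32851 promoters is 7 CpG. Dlk1 has 9, Meg3 has 13, Rian has 0, and the Gnas window has 40, a number that 3.91% of promoters reach. It is the richest in CpG of the 4 Gnas windows, and those not shown have 16, 27 and 28. No methylation was measured here, so whether a window shown carries an imprint cannot be read from these counts.
Dlk1 promoter, chr12:109452573-109452872: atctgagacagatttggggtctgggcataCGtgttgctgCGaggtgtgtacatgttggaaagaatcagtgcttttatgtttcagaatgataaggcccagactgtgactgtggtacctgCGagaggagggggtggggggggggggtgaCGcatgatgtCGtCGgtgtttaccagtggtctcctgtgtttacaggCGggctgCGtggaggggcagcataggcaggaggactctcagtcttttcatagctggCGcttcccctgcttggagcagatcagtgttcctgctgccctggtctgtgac
Meg3 promoter, chr12:109540746-109541045: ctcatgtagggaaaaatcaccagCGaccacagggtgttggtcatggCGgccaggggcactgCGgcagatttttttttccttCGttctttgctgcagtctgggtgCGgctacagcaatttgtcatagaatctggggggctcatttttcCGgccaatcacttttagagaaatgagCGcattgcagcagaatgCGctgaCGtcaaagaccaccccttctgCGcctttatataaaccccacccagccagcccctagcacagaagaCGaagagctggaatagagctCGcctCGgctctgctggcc
Rian promoter, chr12:109603695-109603994: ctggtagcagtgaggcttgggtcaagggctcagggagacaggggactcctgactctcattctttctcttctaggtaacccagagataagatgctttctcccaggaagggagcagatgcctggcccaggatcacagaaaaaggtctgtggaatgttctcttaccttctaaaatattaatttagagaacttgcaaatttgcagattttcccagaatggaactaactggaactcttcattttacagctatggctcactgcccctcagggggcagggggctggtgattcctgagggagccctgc
Gnas promoter, chr2:174329756-174330055: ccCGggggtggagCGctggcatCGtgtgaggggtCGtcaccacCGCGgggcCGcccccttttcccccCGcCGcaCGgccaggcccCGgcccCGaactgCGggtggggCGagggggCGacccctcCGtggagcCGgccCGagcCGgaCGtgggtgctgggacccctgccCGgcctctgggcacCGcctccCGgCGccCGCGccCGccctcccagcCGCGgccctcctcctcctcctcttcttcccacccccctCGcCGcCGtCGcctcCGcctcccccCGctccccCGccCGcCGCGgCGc

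Motifs were searched for on both strands of all 16 RefSeq windows of 9 members. The cAMP response element TGACGTCA, which 1.79% of all promoters hold, is present 57 bases before the start of Meg3 and 178 bases before that of Peg3. The TATA box letters TATAAA, held by 13.6% of promoters, lie 25 bases before the start of Meg3 and 165 bases before that of Magel2 on the strand of the gene, and on the opposite strand of 3 Gnas windows and 1 Snrpn window.

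Across cell types, 8 of the 10 genes had their highest mean level in neurons among the 9 types that each library sampled with 50 nuclei or more, as did 16.9% of the 12115 genes detected in 5% or more of neurons. For 5 of them, Meg3, Rian, Mirg, Peg3 and Snrpn, the 4 neuronal libraries lay above all 4 libraries of the next type, against 9.18% of all genes so placed. Types were defined from the same nuclei, so these levels are a description without a test. The values of a gene are given in the order control replicates 1 and 2, then AgRP-Gq;POMC-Gi replicates 1 and 2, here and throughout.

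Meg3, a maternally expressed RNA and among the most abundant nuclear transcripts of neurons, stood at 9598, 10040.1, 10376 and 9654 CPM in neurons and at 1171, 811, 1079 and 995 CPM in ependymal cells, which line the ventricles and came next. The neuronal mean of 9917 ± 363 CPM (SD, n = 4 libraries) was 9.78-fold the ependymal mean and 82.0-fold that of oligodendrocytes, 121 ± 24.7 CPM. A neuron held 99.6 ± 4.45 UMIs of Meg3 on average and an oligodendrocyte 0.323 ± 0.0512. The neighbours below neurons in the order, from ependymal cells at 1014 CPM over mural cells (777), oligodendrocyte precursors (631), endothelial cells (524), fibroblasts (379), Tmem119-positive immune cells (292) and astrocytes (192) down to oligodendrocytes, overlapped step by step.

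Rian stood at 1020.4, 1018, 1045 and 1030 CPM in neurons, 5.76-fold the ependymal mean of 178 ± 9.72 CPM, and Mirg at 230, 236, 258 and 235 CPM, 8.74-fold the ependymal 27.4 ± 13.5 CPM. Both followed the order of Meg3 through all 9 types. For each 100 UMIs of Meg3, neurons held 10.4 ± 0.314 UMIs of Rian and 2.42 ± 0.0591 of Mirg, while the other 8 types held means of 13.9 to 17.9 and of 2.05 to 3.73. The ratio of Rian was lowest in neurons, and both ratios moved far less than the Meg3 level, which differed by up to 82.0-fold. For Snrpn the same ratio went from 2.72 in neurons to 66.0 in oligodendrocytes, and for Ndn from 0.462 to 26.0. The summed level of 4 neuronal markers was 10496 CPM in neurons and 252 CPM in oligodendrocytes, and the part of neuronal RNA in the values of Meg3, Rian and Mirg outside neurons was not tested.

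Peg3, Gnas and Snrpn were spread over more types. Peg3 was at 533, 537, 541 and 571 CPM in neurons and between 76.7 and 166.8 CPM in the other 8 types, so neurons were 3.27-fold above ependymal cells and 6.38-fold above oligodendrocytes. Snrpn was at 285, 299, 284 and 214 CPM in neurons, 2.57-fold the endothelial mean of 105 ± 14.0 CPM. Gnas was highest in endothelial cells, at 706, 786, 606 and 787 CPM, which overlapped neurons at 719, 732, 635 and 722 CPM, and fell to 207 ± 29.7 CPM in oligodendrocytes. AgRP-Gq;POMC-Gi replicate 1 was the lowest library for Gnas in 8 of the 9 types and replicate 2 of the same group the highest in 8.

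In CPM, Ndn differed little between neurons and the other types. It was at 44.7, 54.1, 35.7 and 48.1 CPM in neurons, below the ependymal 46.8, 64.7, 53.6 and 73.9 CPM in each of the 4 libraries, although the ranges overlapped. Its 9 type means lay between 31.0 and 59.7 CPM, and every neighbouring pair in the order overlapped. By the mean of log-normalized values per nucleus, which also moves with depth, all 10 members were highest in neurons, Ndn and Gnas included. Dlk1 was at 18.4, 17.4, 15.8 and 12.4 CPM in neurons and at 13.6, 9.30, 5.82 and 11.7 CPM in endothelial cells, which overlapped. Choroid plexus, which is not among the 9 types, held more Dlk1, at 80.3 CPM in control replicate 2 and 96.7 CPM in AgRP-Gq;POMC-Gi replicate 2. Gnasas1 was at 22.2, 18.5, 19.3 and 14.3 CPM in neurons against 11.1, 25.8, 20.3 and 14.6 CPM in fibroblasts. Its neuronal mean was the highest of the 9 types, but neurons stood above fibroblasts in only 1 of the 4 libraries. Magel2 was at 4.24, 5.83, 6.44 and 6.58 CPM in neurons and at 0 in at least 1 library of most other types, with 0 UMIs in 819 fibroblasts, which allows up to 0.366% of nuclei with a UMI and says nothing of expression below that depth.

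**Figure D1:**
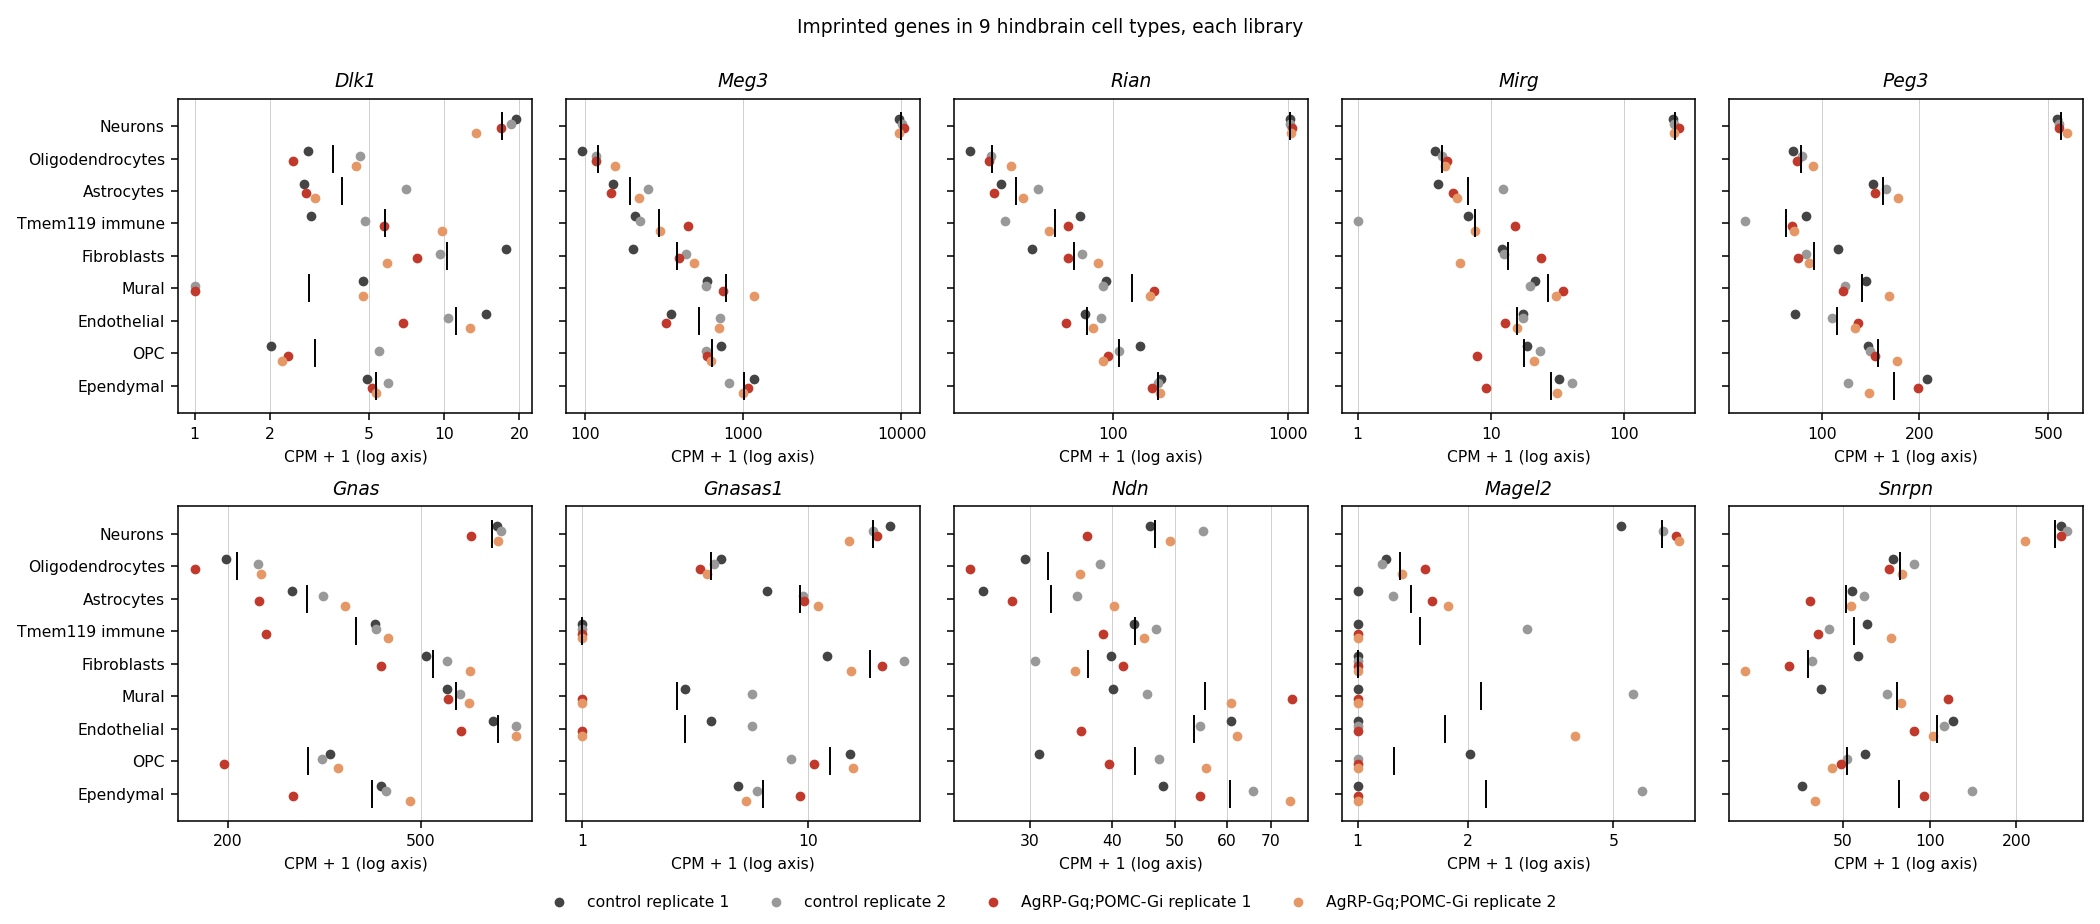
Level of each imprinted gene in the 9 cell types that each library sampled with 50 nuclei or more, as CPM + 1 on a log axis; points are the 4 libraries, coloured by group, and black bars their mean. Meg3 in neurons sits near 9917 CPM with the next type at 1014 CPM, whereas the Ndn means of all 9 types lie between 31.0 and 59.7 CPM.

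The share of neurons with a UMI was 99.8% for Meg3, 97.8% for Rian, 96.0% for Gnas, 93.5% for Peg3, 79.9% for Mirg, 70.1% for Snrpn, 32.2% for Ndn, 11.0% for Gnasas1, 8.17% for Dlk1 and 5.50% for Magel2. In oligodendrocytes, at a lower depth, the same shares were 23.7%, 4.45%, 39.6%, 18.8%, 0.844%, 16.2%, 7.77%, 0.725%, 0.684% and 0.0773%. After each nucleus had been thinned to 800 UMIs, Meg3 was still found in 99.4% of neurons against 9.10% of oligodendrocytes and Rian in 54.6% against 1.68%. Ndn was then found in 4.35% of neurons, 2.48% of oligodendrocytes and 4.46% of ependymal cells, and Gnas in 41.9% of neurons and 45.5% of endothelial cells. For the types named here this follows the order of the CPM values. Over all types compared the order of Ndn differed, with mural cells first at 4.71% and endothelial cells, at 4.18%, below neurons.

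Among neurons the levels were compared over the 120 clusters to which each library gave 5 nuclei or more, 11999 nuclei in all. A cluster carries the number and the 2 marker genes given to it by the authors. The 10 genes fell into those that varied little from cluster to cluster, those whose lowest and highest clusters differed about 10-fold and those that were concentrated in a few clusters. The authors clustered these nuclei on an embedding of their most variable genes, and whether the members were among those genes is not given in the sources used here, so these differences are a description too.

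Meg3, Rian, Mirg and Peg3 varied least. Meg3 ran from 4099 to 13318 CPM, 3.25-fold, with a coefficient of variation over clusters of 14.6%, and Rian from 571 to 1556 CPM, 2.73-fold. Mirg ran from 108 to 363 CPM, 3.35-fold, and Peg3 from 302 to 882 CPM, 2.92-fold. In no cluster did fewer than 81.7% of nuclei hold a UMI of Meg3. The cluster order of Meg3 recurred between libraries, with Spearman rho from 0.72 to 0.87 for the 6 pairs of libraries. Peg3 moved with depth, its rho with the median UMIs of a cluster being 0.61.

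Gnas, Snrpn and Ndn spanned wider ranges. Gnas ran from 234 to 2562 CPM, 10.9-fold, Snrpn from 40.5 to 561 CPM, 13.8-fold, and Ndn from 12.96 to 115 CPM, 8.89-fold. Between the 10th and 90th percentiles of the clusters the folds were 2.89, 3.67 and 3.27. The lowest Ndn level, in cluster 181 (Sntb1/Cpne4), rested on 0, 4, 1 and 0 UMIs. The SD of Ndn between clusters was 21.9 CPM, beside a median SD between libraries of 18.7 CPM. For Gnas the order recurred most closely, with rho of 0.83 to 0.88 between libraries, and for Snrpn it was 0.79 to 0.86. For Ndn it was 0.32 to 0.52, and Ndn was lower in clusters of greater depth (rho −0.55).

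Dlk1, Gnasas1 and Magel2 were at 0 in some clusters. Dlk1 had no UMI in 18 of the 120 clusters and a coefficient of variation of 200%. The 10 clusters highest in Dlk1 held 34.7% of its neuronal UMIs in 5.81% of the neurons, and those highest in Gnasas1 held 26.9% of its UMIs in 6.44% of the neurons. Magel2 was less concentrated, with 20.1% of its UMIs in 7.08% of the neurons, and was at 0 in 10 of the 120 clusters. The order of clusters recurred least for Magel2, with rho of 0.25 to 0.48 between libraries, and for Mirg, with 0.24 to 0.53.

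**Figure D2:**
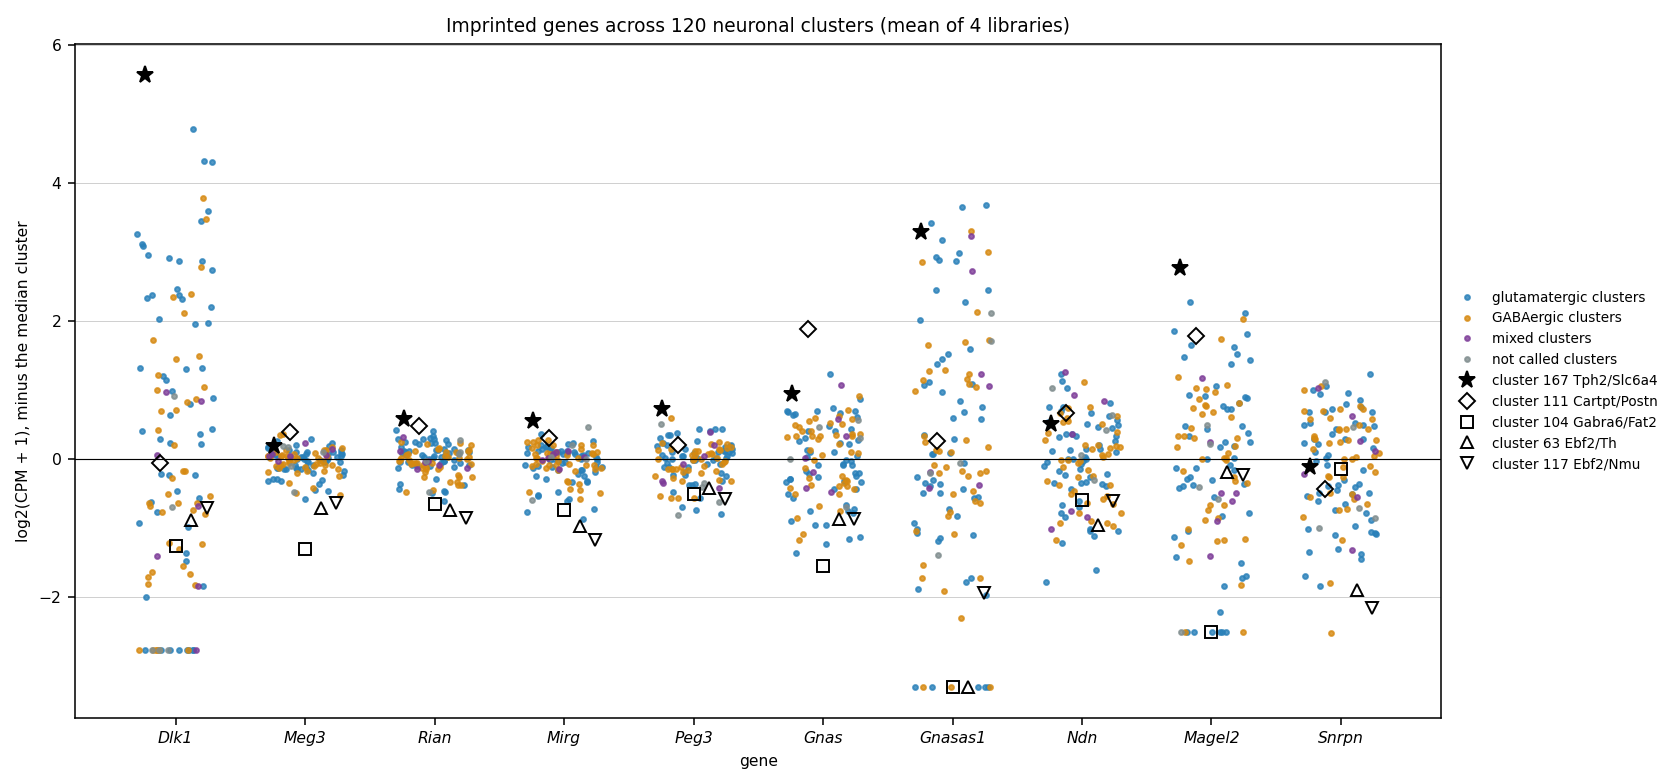
Level of each imprinted gene in the 120 neuronal clusters, as log2(CPM + 1) minus that of the median cluster, with one point per cluster coloured by transmitter class and the 5 clusters discussed most marked. Points of Meg3, Rian, Mirg and Peg3 lie close to 0, and those of Dlk1 spread upward, cluster 167 farthest.

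Cluster 167 (Tph2/Slc6a4), named for 2 genes of serotonin neurons, had the highest mean level of 5 members, each with libraries that overlapped those of the next cluster. It ranked first of the 120 clusters for Tph2, the enzyme that starts serotonin synthesis in the brain, and for Slc6a4, the serotonin transporter. Dlk1 was at 363, 180.2, 523 and 229 CPM there, 55.5-fold the median cluster, with a UMI in 79.1% of nuclei. Rian was at 1598, 1784, 1651 and 1189 CPM, Mirg at 303, 306, 431 and 412 CPM, and Peg3 at 937, 829, 892 and 869 CPM. Mirg stood 1.47-fold and Peg3 1.65-fold above the median cluster, and Peg3 was high in every library. Magel2 was at 23.9, 72.1, 10.3 and 45.7 CPM from 12 UMIs in all. Gnas ranked 4 and Gnasas1 ranked 5 there, while Snrpn ranked 67. The cluster had 43 nuclei, only 5 of them in the smallest library, where Dlk1 rested on 5 UMIs.

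Cluster 111 (Cartpt/Postn) had the highest level of Gnas and of Meg3. Gnas was at 2548, 2897, 2123 and 2678 CPM, 3.70-fold the median cluster and without overlap with the next cluster, 184 (Calcr/Shox2), at 1332, 1698, 1743 and 1740 CPM. Meg3 was at 12896, 12239, 14684 and 13455 CPM, which overlapped cluster 89 (Necab1/Arhgap15) at 12179, 12926, 13240.2 and 13657 CPM. Gnasas1 was not high in cluster 111, at 0, 36.1, 7.21 and 0 CPM, rank 52, although its transcript runs across Gnas.

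Cluster 116 (Prph/Slc5a7), which ranked first for Chat, the enzyme that makes acetylcholine, was among the 3 highest for Mirg, Peg3 and Snrpn. Snrpn was at 564, 709, 424 and 361 CPM there. The highest level of Snrpn was in cluster 94 (Zfp804b/Zmat4), at 579, 560.2, 602 and 501 CPM, with a UMI in 93.2% of nuclei, and the lowest in cluster 144 (Nox4/Kcnmb2), at 42.1, 15.8, 41.6 and 62.5 CPM. These last ranges lay far apart. Clusters 116 and 94 had medians of 14832.5 and 11746 UMIs per nucleus, above the 8704 of all neurons, and cluster 144 had 6906. Over clusters, the rho with the median UMIs was 0.61 for Peg3, 0.36 for Snrpn and 0.06 for Mirg. The part of depth in these levels was not tested.

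Dlk1 and Gnasas1 shared several of their highest clusters. After cluster 167, Dlk1 was highest in 149 (Cartpt/Arhgap28) at 240.1, 271, 114 and 121 CPM, in 100 (Dlk1/F13a1), which is named for it, at 103, 214, 122 and 100.1 CPM, and in 184 (Calcr/Shox2) at 105, 159, 81.7 and 191 CPM. Gnasas1 was highest in 130 (Qrfpr/Tac1) at 149, 158, 116 and 84.1 CPM, in 184 at 105, 239, 54.5 and 95.6 CPM and in 100 at 129, 57.7, 119 and 117 CPM. The 5 highest clusters of both genes had 100, 184, 82 and 167 in common. Magel2 was highest, after cluster 167, in 70 (Tfap2b/Cntnap5b) at 21.6, 25.0, 33.4 and 26.7 CPM.

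The low end was shared as well. Clusters 63 (Ebf2/Th) and 117 (Ebf2/Nmu) were among the 3 lowest for Meg3, Rian, Mirg and Snrpn. In cluster 63 Meg3 was at 6213, 6696, 5929 and 5967 CPM and Snrpn at 62.6, 75.0, 53.5 and 59.1 CPM, 0.611-fold and 0.263-fold the median cluster. Cluster 104 (Gabra6/Fat2), which ranked first for Gabra6, a GABA receptor subunit of cerebellar granule cells, was the lowest for Meg3, at 3947, 4320.0, 5385 and 2745 CPM, and for Gnas, at 326, 265, 226 and 119 CPM. Its median of 3549 UMIs per nucleus was under the 8704 of all neurons, and the part of depth in these values was not tested. Cluster 181 (Sntb1/Cpne4) had no UMI of Dlk1, Gnasas1 or Magel2 in 30 nuclei and the lowest Ndn, yet ranked 4 for Peg3, at 795, 681, 653 and 750.4 CPM. Its median was 12241.5 UMIs per nucleus, and the part of depth in its Peg3 and Ndn levels was not tested. Counting only the 77 clusters to which each library gave 10 nuclei or more, which leaves out 167 and 111, Dlk1 was highest in 82 (Tal1/Nell1) at 92.3 CPM, Gnas in 114 (Tac1/Tafa2) at 1148 CPM and Peg3 in 74 (Rbm20/Nox4) at 803 CPM. The highest cluster of 7 to 9 members was unchanged when 1 library was left out; without control replicate 1 Gnasas1 became highest in 184 and Ndn in 53, without control replicate 2 Gnasas1 in 100 and Magel2 in 70, without AgRP-Gq;POMC-Gi replicate 1 Meg3 in 89, Mirg in 116 and Gnasas1 in 184, and without AgRP-Gq;POMC-Gi replicate 2 Mirg in 116.

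By transmitter, 69 clusters were glutamatergic and 46 GABAergic, from at least 4-fold more Slc17a6 or Slc32a1, the vesicular transporters of glutamate and of GABA. Dlk1 was at 19.8, 22.6, 21.3 and 14.7 CPM in glutamatergic and 11.1, 12.3, 8.51 and 9.79 CPM in GABAergic neurons, higher in glutamatergic neurons in 4 of 4 libraries and without overlap (log2 difference 0.91). When 10-fold more of a transporter was required to call a cluster, the difference was 0.35. Rian was at 1042, 1050, 1062 and 1039 CPM against 986, 977, 1013 and 1013 CPM, also without overlap but by only 0.07 on the log2 scale. The other 8 members overlapped between the classes. The count of 2 of 10 stood beside 15.5% of all 12115 genes whose libraries did not overlap. Compared within each library, 6 of the 10 went the same way in 4 of 4, beside 43.1% of all genes. Besides Dlk1 and Rian these were Gnas, lower in glutamatergic neurons at 677 ± 38.9 against 724 ± 55.5 CPM (log2 difference −0.10, SD 0.04 over libraries), Peg3 (0.05, SD 0.02), Meg3 (0.01, SD 0.01) and Snrpn (−0.06, SD 0.06). Snrpn turned to 0.06 under the 10-fold rule, and Meg3 to −0.02 with every cluster weighted equally.

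The likeness of 2 genes was measured as Spearman rho over the mean levels of the 120 clusters, which share libraries and depth, and is given as a description. Of 45 pairs of members, 8 had a rho over 0.5. The closest were Gnas with Gnasas1 (0.72), Ndn with Magel2 (0.64), Meg3 with Rian (0.61) and Rian with Mirg (0.57). Within single libraries Ndn with Magel2 had only 0.15 to 0.42. Both of these genes were lower in clusters of greater depth (rho −0.55 for Ndn and −0.44 for Magel2), and the part of depth in their likeness was not tested. Pairs from the same locus had a median rho of 0.46 (10 pairs, 5 over 0.5) and pairs from different loci 0.29 (35 pairs, 3 over 0.5). The values were lower when nuclei were thinned to 2000 UMIs and the share with a UMI was used in place of CPM: 1 pair, Gnas with Gnasas1 (0.60), then stayed over 0.5, while Ndn with Magel2 had 0.40 and Rian with Mirg 0.27. That measure cannot order clusters by Meg3, whose thinned share was 100% in 109 of the 120, and among the 36 pairs without Meg3 it left 1 of 6 over 0.5.

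Sharing a locus did not go with likeness for every pair. Dlk1 had a rho of 0.06 with Meg3, its neighbour on chromosome 12, and of 0.55 with Gnasas1 on chromosome 2. Snrpn had rho of −0.03 with Ndn and −0.13 with Magel2, the other members from the same stretch of chromosome 7, while Ndn had 0.56 with Gnas. On the thinned shares the values of Snrpn with Ndn and with Magel2 were 0.02 and 0.03. Snrpn was higher in clusters of greater depth (rho 0.36), where Ndn and Magel2 were lower, and the part of depth in these values was not tested. Within glutamatergic clusters (61 clusters) Dlk1 had rho of 0.65 with Gnas and 0.53 with Ndn, and within GABAergic clusters (45 clusters) 0.26 and −0.15. Fewer pairs passed a rho of 0.5 without control replicate 2 (5 pairs) and without AgRP-Gq;POMC-Gi replicate 1 (5 pairs), and within a single library 1, 2, 4 and 2 pairs did.

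**Figure D3:**
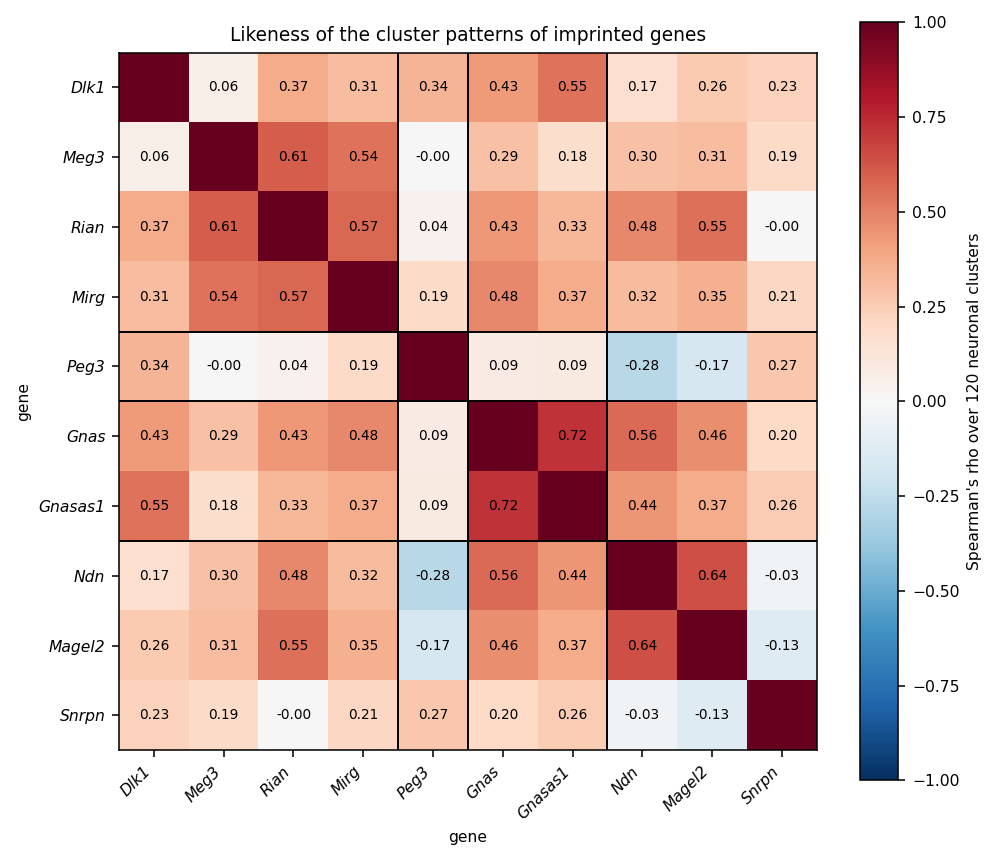
Spearman rho of every pair of the 10 imprinted genes over 120 neuronal clusters, as a colour from −1 to 1 with the value in each cell; lines separate the 4 loci. Meg3, Rian and Mirg form a block of 0.54 to 0.61 that leaves out Dlk1, and Snrpn stands apart from Ndn and Magel2.

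Among the other 12114 genes detected in 5% or more of neurons, the 3 most alike were named for each member. A gene could be named for more than 1 member, and members could be named for each other. Of these 30 entries, 15 lay within 1000 kb of the member, for 7 members. The near entries include pairs of members already given above and genes that overlap Gnas, whose reads may not be told apart. The share of all genes within 1000 kb of a member was not counted, so whether 15 is more than usual was not tested. B830012L14Rik, a non-coding RNA at chr12:109695586-109702587 between Rian and Mirg, came first for Meg3 (rho 0.61), Rian (0.71) and Mirg (0.61). Snhg14, which lies 6.74 kb from Snrpn and holds the antisense transcript of Ube3a, came first for Snrpn (0.78), and Ube3a, the ubiquitin ligase gene of Angelman syndrome 671 kb away, came second (0.72). Gm20721, antisense to Gnas, came first for Gnas (0.92), and Stx16, whose deletions affect GNAS imprinting in people, was the next after these for Gnasas1 (0.61) from 181 kb away. For Dlk1 the first were Srrm2 (0.63), on another chromosome, and Begain (0.61), 385 kb away on chromosome 12. The first for Ndn was Eef1a1 (0.78), a translation factor, for Magel2 Tmem130 (0.73) and for Peg3 Nefm (0.66), the medium neurofilament chain, all on other chromosomes. For comparison, between 0.0413% (Meg3) and 3.03% (Ndn) of all genes had a rho over 0.5 with a member.

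The group comparison asked whether activating AgRP while silencing POMC neurons was followed by a change of these genes in the hindbrain 1 h after CNO. In neurons none of the 10 passed an adjusted p of 0.05 by edgeR's quasi-likelihood test with Benjamini-Hochberg adjustment over 12115 genes, as was so for 0 of the 12115 (0%), and by DESeq2 0 of the 10 and 10 of all genes passed. At an unadjusted p under 0.05 there was 1 member, against 5.51% of genes. The groups did not overlap for 5 of the 10, Dlk1, Rian, Peg3, Magel2 and Snrpn, against 38.1% of genes. Of the log2 differences of AgRP-Gq;POMC-Gi over control, 5 were above and 5 below 0, with a median of 0.02 against −0.00028 for all genes.

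The largest differences were small in CPM. Magel2 was at 4.24 and 5.83 CPM in control neurons, and AgRP-Gq;POMC-Gi replicates stood at 6.44 and 6.58 CPM, a log2 difference of 0.43 (SE 0.17, unadjusted p = 0.0424 and adjusted p = 0.81 by edgeR). Dlk1 was at 18.4 and 17.4 CPM in control neurons and at 15.8 and 12.4 CPM with AgRP-Gq;POMC-Gi, a log2 difference of −0.28 (SE 0.16). Meg3 differed by 0.09 (SE 0.13; 0.03 without TMM factors), Peg3 by 0.11 (SE 0.08; 0.06 without them) and Gnas by −0.04 (SE 0.09; −0.10 without them). Differences and calls depended on single libraries. With 1 library left out, that of Magel2 lay between 0.22 (without control replicate 1) and 0.67 (without control replicate 2), and that of Dlk1 between −0.53 (without AgRP-Gq;POMC-Gi replicate 1) and −0.06 (without replicate 2 of that group). The sign turned for Meg3 without AgRP-Gq;POMC-Gi replicate 1 (−0.02). It turned for Snrpn (from −0.16 to 0.08) and Gnasas1 (from −0.21 to 0.04) when replicate 2 of that group was left out. Without AgRP-Gq;POMC-Gi replicate 2, Meg3 (log2 difference 0.20, adjusted p = 0.0133) and Mirg (0.27, adjusted p = 0.0213) passed among 2017 genes in all, and without AgRP-Gq;POMC-Gi replicate 1 Snrpn did (−0.45, adjusted p = 0.0479) among 29 genes, each time with a lone library in that group.

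**Figure D4:**
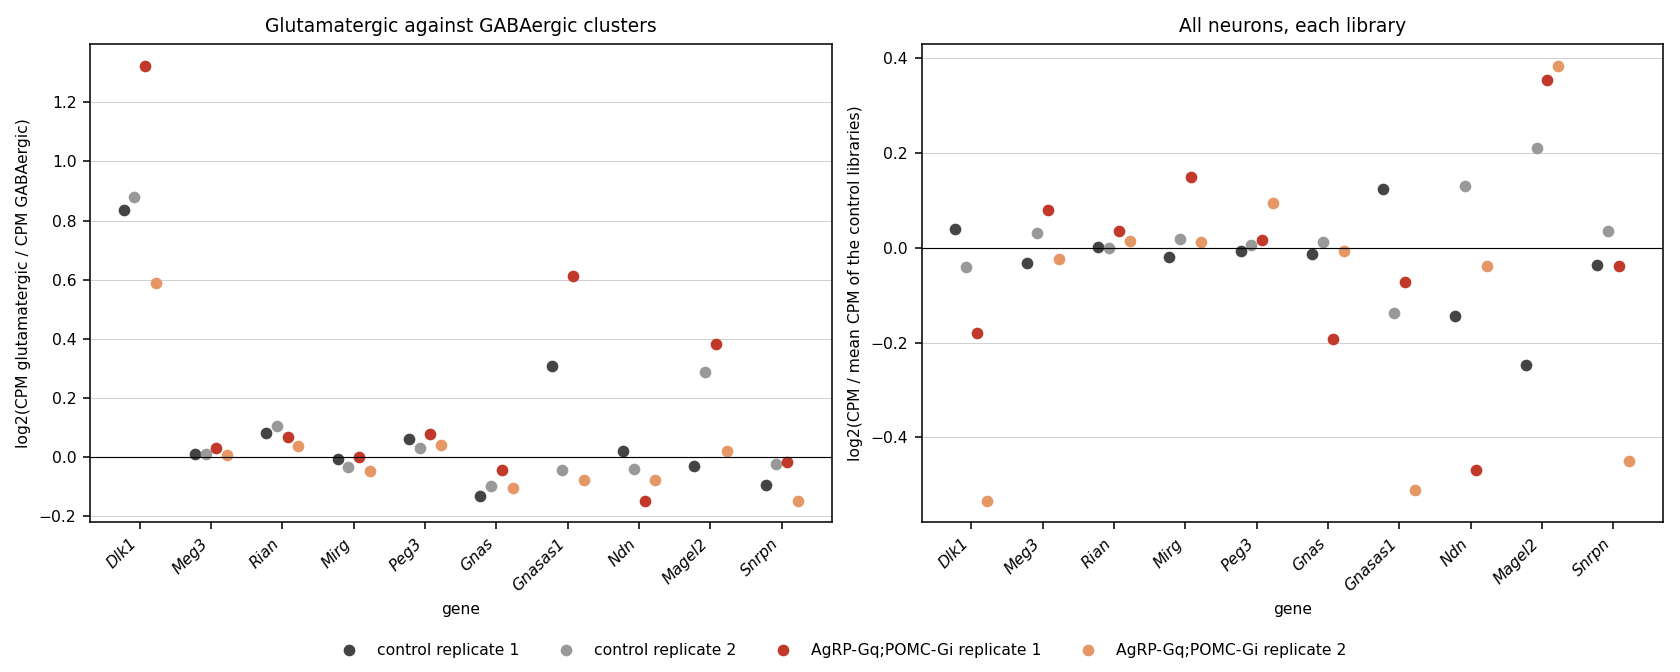
Left, log2 ratio of glutamatergic over GABAergic CPM of each imprinted gene in each of the 4 libraries; right, log2 of neuronal CPM in each library over the control mean. The 4 points of Dlk1 lie above 0 on the left, and on the right the lowest point is Dlk1 in AgRP-Gq;POMC-Gi replicate 2 (12.4 CPM) and the highest are the AgRP-Gq;POMC-Gi points of Magel2 (6.44 and 6.58 CPM).

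In the other 8 cell types 0 of 49 pairs of a member and a type passed by edgeR, beside 0.0713% of 58924 pairs of all genes, and 0 by DESeq2. At an unadjusted p under 0.05 there were 6 pairs, 5 of them higher with AgRP-Gq;POMC-Gi, beside 6.44% of all. The smallest p-values were of Meg3 and Rian. In mural cells, which wrap small vessels, Meg3 was at 594 and 586 CPM in control and 751 and 1178 CPM with AgRP-Gq;POMC-Gi, a log2 difference of 0.76 (SE 0.20, adjusted p = 0.102 by edgeR), and Rian was at 89.7, 86.4, 169 and 161 CPM (0.93, SE 0.28). In Tmem119-positive immune cells, where Tmem119 marks microglia, Meg3 was at 205 and 221 against 446 and 296 CPM (0.81, SE 0.21). The share of nuclei with a UMI of Meg3 was 47.8% and 51.0% against 46.6% and 52.1% in mural cells. In the immune cells it was 18.0% and 24.2% against 19.6% and 31.7%. Rian in mural cells rested on 48, 37, 25 and 43 UMIs, with shares of 10.4%, 9.96%, 17.5% and 12.3%. The other pairs under 0.05 were Meg3 in oligodendrocytes (0.40, SE 0.13), Snrpn in mural cells (0.79, SE 0.35) and, lower with AgRP-Gq;POMC-Gi, Rian in oligodendrocyte precursors (−0.46, SE 0.20). The summed level of 4 neuronal markers moved the same way, from 376 and 420.2 to 514 and 949.9 CPM in mural cells and from 424 and 335 to 592 and 453 CPM in the immune cells, and its part in these differences was not tested. Without AgRP-Gq;POMC-Gi replicate 1, Meg3 in mural cells passed (log2 difference 1.00, adjusted p = 0.00149), among 319 pairs of all genes.

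In single neuronal clusters 0 of 1024 pairs of a member and a cluster passed by edgeR, beside 0.0279% of 1396489 pairs of all genes, and 0 by DESeq2. At an unadjusted p under 0.05 there were 57 pairs by edgeR, 5.57%, beside 4.51% of all, and 8 by DESeq2, 0.78% beside 0.39%. The smallest p was of Snrpn in cluster 31 (Cdh3/Nkain3), at 292 and 248 CPM in control and 164 and 132 CPM with AgRP-Gq;POMC-Gi, a log2 difference of −0.85 (SE 0.19, adjusted p = 0.173 by edgeR). It was 1 of 2 pairs that passed without control replicate 2 (adjusted p = 0.0431, among 1079 pairs of all genes) and without AgRP-Gq;POMC-Gi replicate 1 (adjusted p = 0.00941, among 981). Over all clusters the AgRP-Gq;POMC-Gi level of Meg3 was the higher in 102 of 120 clusters, by a median of 0.10 on the log2 scale, Mirg in 94, Peg3 in 92 and Rian in 84, Gnas in 53, Snrpn in 50 and Ndn in 42, and of fewer clusters tested, Magel2 in 39 of 59, Dlk1 in 27 of 51 and Gnasas1 in 27 of 74, beside 51.1% of all pairs. These counts depended on the scaling: without TMM factors they were 73 for Meg3 (median 0.02), 77 for Mirg, 80 for Peg3, 66 for Rian, 40 for Gnas, 36 for Snrpn, 39 for Ndn, 37 for Magel2, 26 for Dlk1 and 24 for Gnasas1, beside 46.3% of all pairs. The clusters share the same 4 libraries, so these counts are no replicates.

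Other imprinted genes were counted from a list of 48 names, of which 46 matched a row of another gene and Nespas is the member Gnasas1. In neurons 31 of the 46 were detected in 5% or more of nuclei, and 14 of these 31 were highest in neurons among the 9 types, beside 16.9% of all genes so detected. Neighbours of Snrpn were highest in neurons, Ube3a at 3249 ± 151 CPM (SD, n = 4 libraries) with a UMI in 98.9% of neurons and 35.2% of oligodendrocytes, and Snhg14 at 1488 ± 51.2 CPM with 97.8% and 15.3%. Usp29, next to Peg3, was at 694 ± 32.0 CPM with 92.4% and 2.00%, and Rtl1, between Meg3 and Rian, at 85.4 ± 2.28 CPM with 49.8% and 0.196%. Begain, of the locus of Dlk1, was also highest in neurons, at 51.5 ± 2.62 CPM with 35.7% and 4.83%. So was Zim1, of the locus of Peg3, at 20.3 ± 0.848 CPM with 13.5% and 0.850%. The remaining neighbours had few UMIs in neurons. Mkrn3 was at 0.273 ± 0.161 and Peg12 at 0.0376 ± 0.0354 CPM in neurons, both beside Ndn and Magel2. Mkrn3 was highest in oligodendrocytes, at 4.41 CPM, with a UMI in 1.17% of their nuclei against 0.255% of neurons. Peg12 was highest in Tmem119-positive immune cells, at 1.02 CPM. Dio3 was at 0.0234 ± 0.0281 CPM in neurons, and Snurf was listed at 0. Snurf lies within Snrpn on the same strand, and how reads of such a pair were assigned is not given in the sources used here, so its 0 does not show that it is absent. Outside neurons were Nnat, highest in ependymal cells at 3277 CPM against 47.3 CPM in neurons, Igf2, highest in fibroblasts at 324 against 1.46 CPM, and Airn, highest in mural cells at 1030.2 against 141 CPM. Between the groups 0 of the 31 tested in neurons passed by edgeR, 1 had an unadjusted p under 0.05 (Htr2a, a serotonin receptor gene, log2 difference −0.37, adjusted p = 0.81 by edgeR), and 21 of the 31 were higher in AgRP-Gq;POMC-Gi neurons, beside 49.9% of all genes tested. Without TMM factors 12 of the 31 were higher, beside 30.7% of all. By DESeq2 0 of them passed as well, and 1 had an unadjusted p under 0.05.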

How the data were processed

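Nuclei of the posterior hindbrain were stained with DRAQ5, sorted and run as 4 droplet libraries, 2 per group. The authors mapped reads to GRCm38 and deposited raw UMI counts per gene and barcode (Cell Ranger 7.0.0); they deposited a table of barcodes with UMI counts, the mitochondrial percent, a pass mark, cluster and cell type (Seurat 4.3.0 in the submitters' processing notes). Their pass mark followed filters on UMIs, genes, mitochondrial reads and doublets; only passing nuclei, which had at least 800 UMIs and 500 genes and at most 9.94% mitochondrial counts, were used here, with no further doublet step; the joined matrix was not used.

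UMIs were summed per library over each cell type and neuronal cluster, as CPM. Groups were compared with edgeR 4.0.16 (quasi-likelihood test, TMM, R 4.3.3) over genes detected in 5% or more of the nuclei of a type or cluster, with Benjamini-Hochberg adjustment, pooled over types or over clusters; DESeq2 1.42.0 was an alternative. The code was tested on simulated data. Exact binomial intervals and zero limits (3 counts at 95%) cover counting error only. The genes, lists and named-gene rule (the highest and lowest clusters and the 3 most alike genes of each member) were chosen with earlier results of these data known. Results of some neuronal clusters are not reported here. Proteins were not analysed here.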

Additional observations from a re-analysis of the deposited data

How the results depend on the processing

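Of the values given under alternative settings, the count of members highest in neurons (7 to 10 of 10) and that of members higher in glutamatergic neurons (5 to 9, against 6) stayed within 1.5-fold. Members called in neurons went from 0 to between 0 and 2 when 1 library was left out, in other cell types from 0 to between 0 and 1, and in single clusters from 0 to between 0 and 2; a lone library was then assumed to vary like the others. With all genes tested, 1 pair of a member in single clusters passed, among 947 of all genes (Snrpn in 31, adjusted p = 0.0279 by edgeR). Requiring 10 nuclei per library kept the highest cluster of 3 of 10 members, since fewer clusters were left, and leaving out 1 library that of 7 to 9. Pairs with rho over 0.5 fell from 8 to 1 on shares thinned to 2000 UMIs, where Meg3 is at 100% in most clusters and its pairs cannot be judged (from 6 to 1 without them), to between 5 and 8 without 1 library, and to 1, 2, 4 and 2 within single libraries.

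The replicate numbers of the 2 groups name no shared litter, batch or day; deviations of same-numbered libraries had r = 0.18 over 12115 genes. With the replicate number as a block, 0 members but 168 genes passed in neurons, 1 member among 567 pairs in other types (Meg3 in mural cells, log2 difference 0.74, adjusted p = 0.00749 by edgeR) and 1 among 598 pairs in single clusters (Snrpn in 31, −0.83, adjusted p = 0.0144 by edgeR). The depth limits Dlk1, Gnasas1 and Magel2 most, since many clusters held few or no UMIs of them.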

Other observations

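Choroid plexus, which makes cerebrospinal fluid, was left out of the comparison of cell types because its 773 nuclei fell unevenly over the libraries, 2, 436, 6 and 329 in the order control replicates 1 and 2 and AgRP-Gq;POMC-Gi replicates 1 and 2. In the pair with enough nuclei Dlk1 was at 80.3 and 96.7 CPM, from 156 and 151 UMIs, above the 12.4 to 18.4 CPM of neurons. Gnasas1 and Magel2 had no UMI in these nuclei, which allows up to 0.388% of nuclei with a UMI and is no limit on expression below that depth. Tanycyte-like cells, with 26, 26, 67 and 83 nuclei, held Ndn at 41.0, 174.9, 43.7 and 67.5 CPM.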
